A study of Mus musculus with 3 samples.

Results

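The genes described here are 10 Wnt ligands, *Wnt2*, *Wnt2b*, *Wnt4*, *Wnt5a*, *Wnt5b*, *Wnt7b*, *Wnt9a*, *Wnt10b*, *Wnt11* and *Wnt16*, out of 19 Wnt genes and 55422 genes counted in all. They were chosen by symbol, each symbol being on 1 row, and with the level of *Wnt4* in septoclasts already known from these libraries. Their mRNA was counted in 3 droplet single-cell libraries of untreated male mice aged 3 weeks, made from femur and tibia. The metaphysis was dissected for the metaphyseal libraries, while for the GFP+ library the study names the metaphysis in its methods and the metaphysis with the epiphysis in its results. The libraries metaphyseal 1 and metaphyseal 2 held wild-type C57BL/6J cells left after magnetic depletion of haematopoietic lineage, CD45+ and CD117+ cells, and the library Pdgfra-GFP 1 held GFP+ cells sorted from *Pdgfra-H2B-GFP* heterozygous knock-in reporters. The reporter marks nuclei of cells in which the *Pdgfra* locus is active, and the mice of this library carry it on one allele. The sources used here do not say how many mice each library holds. The p-values therefore measure how differences between populations vary over these libraries. Genotype, sorting, dissected region and library cannot be told apart between Pdgfra-GFP 1 and the metaphyseal libraries, and populations were therefore compared within libraries.

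Wnt ligands are secreted, lipid-modified glycoproteins that bind Frizzled receptors on nearby cells. With LRP5 or LRP6 as co-receptor they stabilise β-catenin, and with ROR or RYK receptors they act through β-catenin-independent routes. In growing long bone, Wnt signals are known to steer osteoblast differentiation and the maturation of growth plate chondrocytes. Septoclasts (SCs) are mononuclear cells at the chondro-osseous border that resorb cartilage matrix.

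After filtering, 2382, 2004 and 11250 cells remained in metaphyseal 1, metaphyseal 2 and Pdgfra-GFP 1, with median depths of 6257, 6426 and 5332.5 UMIs (molecules counted) per cell. Cells were assigned by marker genes, and each population carries the suffix "-like" because the gates were rebuilt here. SC-like cells, which needed *Mmp9* and at least 3 of 6 SC markers, numbered 27, 21 and 283. Metaphyseal mesenchymal stromal cells (mpMSC-like) numbered 59, 53 and 1112, diaphyseal ones (dpMSC-like) 693, 650 and 4033, and osteoblastic cells (OB-like) 198, 166 and 1515. Chondrocyte-like cells numbered 40, 34 and 1403 and endothelial (EC-like) cells 1099, 866 and 294. Fibroblast-like cells (149) were found in Pdgfra-GFP 1 and in neither metaphyseal library, and superficial chondrocyte-like cells (183) were nearly all in that library. The GFP+ library also held 294 EC-like and 264 haematopoietic-like cells. Metaphyseal 1 shared 0 cell barcodes with metaphyseal 2, and Pdgfra-GFP 1 shared 9 and 10 with the metaphyseal libraries. A chance draw of barcodes would give 0.703 between the metaphyseal libraries, and 3.94 and 3.32 with Pdgfra-GFP 1.

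The 6 SC markers formed the gate, so their levels describe the SC-like cells and do not test the label. Levels are given as CPM, the UMIs of a gene scaled to the total UMIs of the same cells. *Mmp9*, which every SC-like cell had to carry, was at 3965, 5588 and 9094 CPM in metaphyseal 1, metaphyseal 2 and Pdgfra-GFP 1, against 99.5, 69.2 and 183 CPM in mpMSC-like cells. *Fabp5*, the fatty acid binding protein by which septoclasts are known, was at 252, 1265 and 1805 CPM against 194, 59.6 and 100.3 CPM, so metaphyseal 1 stood barely above its mpMSC-like cells. *Otos* was at 7.76, 108 and 136 CPM against 9.05, 3.84 and 4.06 CPM, so in metaphyseal 1 it was below its mpMSC-like cells. *Sstr2*, *Cd55* and *Egfr* were above mpMSC-like cells in each library. In metaphyseal 1 the label therefore rests on *Mmp9*, *Sstr2*, *Cd55* and *Egfr*. *Egfr* was there at 155 CPM in SC-like and 127 CPM in dpMSC-like cells. The dpMSC marker *Cxcl12* was at 3767, 1836 and 1316 CPM in SC-like cells and at 23289 to 23864 CPM in dpMSC-like cells. In metaphyseal 1, SC-like cells were above mpMSC-like cells in *Cxcl12* (mpMSC-like 2598 CPM), *Lepr* (186 against 118), *Adipoq* (233 against 83.2) and *Esm1* (62.1 against 12.7). *Kitl* went the other way (186 against 192 CPM). SC-like cells also carried a median of 3, 3 and 2 of the 5 mpMSC markers, and 59.3%, 42.9% and 43.5% of them passed the gate with exactly 3 SC markers. Of the mpMSC-like cells, the reference of the later tests, 62.7%, 58.5% and 57.9% passed their gate with exactly 3 markers. In metaphyseal 1 and metaphyseal 2 the mpMSC marker *Mmp13* was at 6456 and 11490 CPM in SC-like cells, above 5727 and 4014 CPM in mpMSC-like cells. *Pdgfrb* was also above there (625 and 527 against 391 and 344 CPM), while *Postn*, *Kcnk2* and *Aspn* were below. The SC-like and mpMSC-like gates therefore border on each other.

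*Wnt4* was the most counted of the 10 ligands. It gave 1974, 1956 and 4637 UMIs in the cells of metaphyseal 1, metaphyseal 2 and Pdgfra-GFP 1, which was 75.7%, 78.8% and 53.8% of the UMIs of all 10. *Wnt5b* followed with 2612 UMIs over all libraries, then *Wnt5a* with 1263 and *Wnt11* with 606. The other 6 were sparse, with 194 UMIs for *Wnt16*, 158 for *Wnt9a*, 124 for *Wnt7b*, 104 for *Wnt10b*, 65 for *Wnt2* and 15 for *Wnt2b*. These UMIs count molecules captured at the 3′ end and are not scaled by transcript length. The plot of all ligands by population shows how each is distributed.

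**Figure D1:**
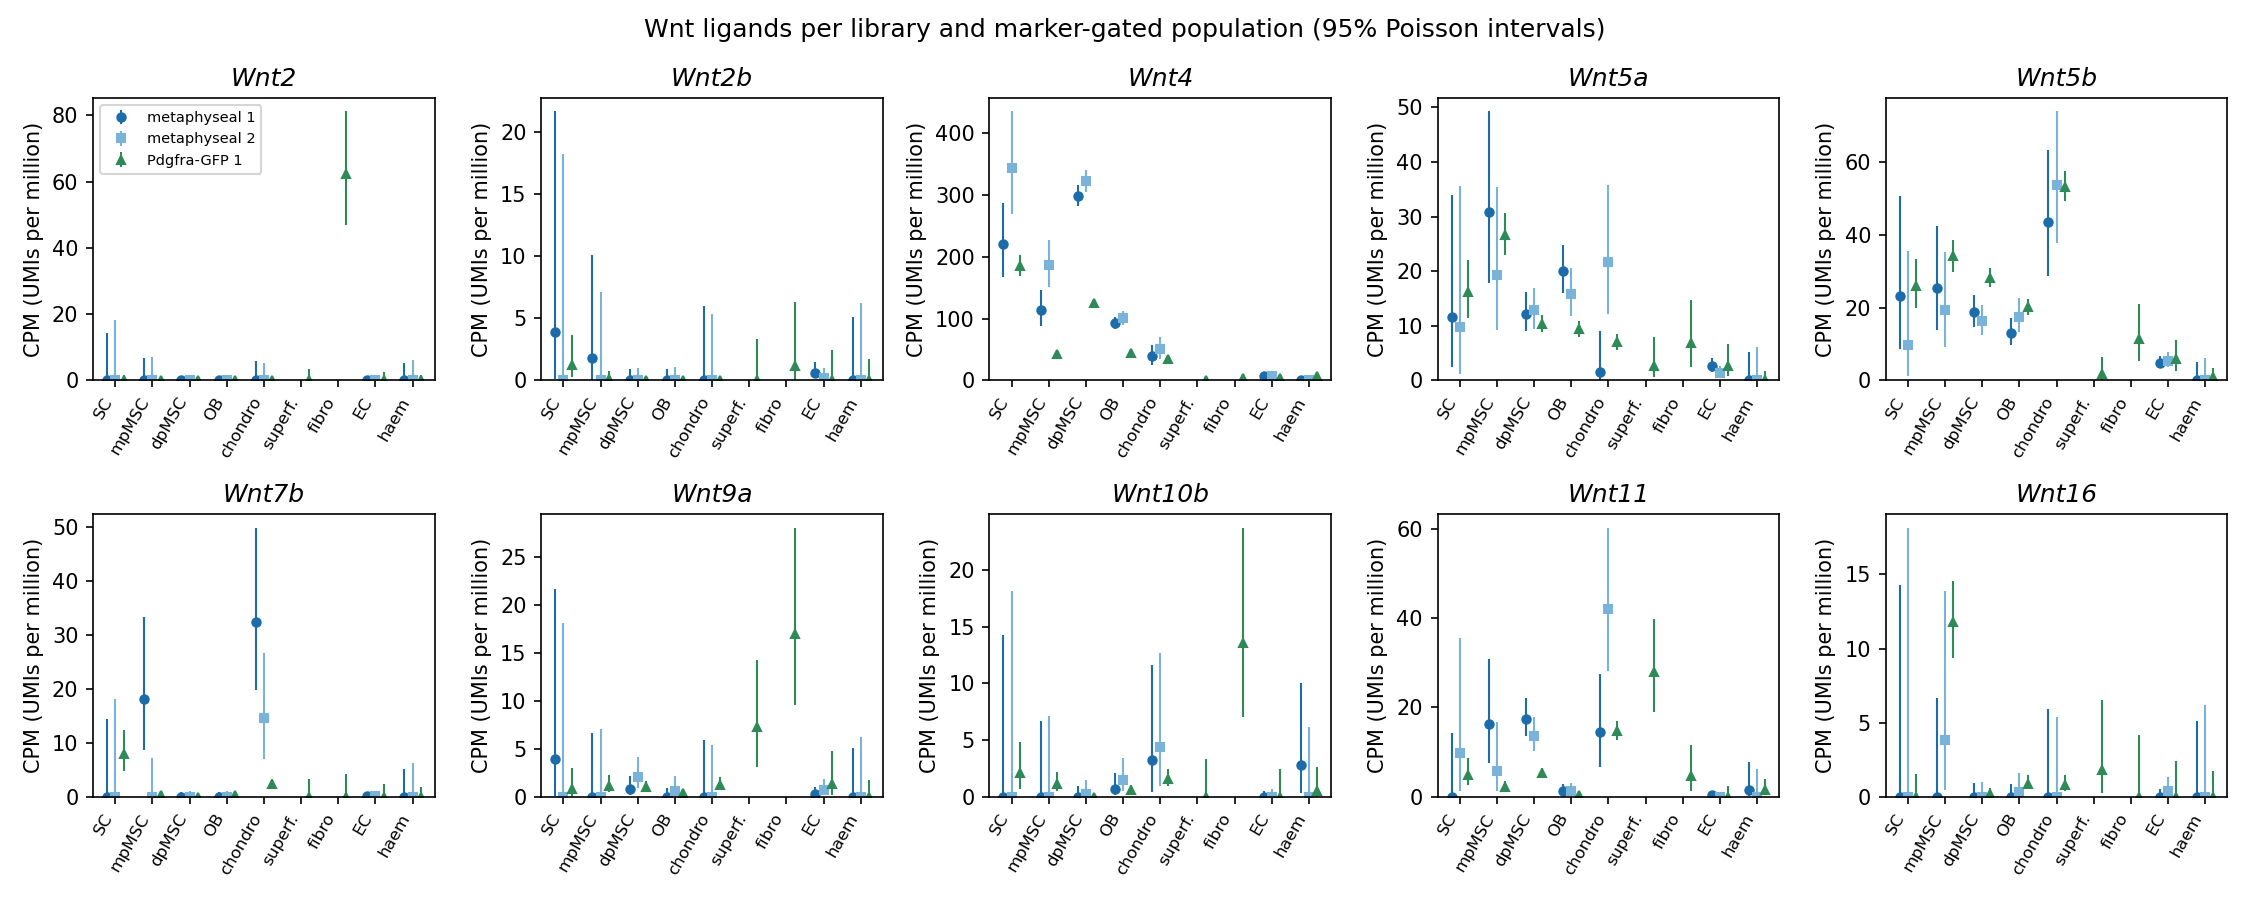
Level of each of the 10 Wnt ligands (CPM, own linear axis for each gene) in 9 marker-gated populations, 1 point per library with its 95% Poisson interval. *Wnt4* is highest in SC-like and dpMSC-like cells, *Wnt5b* in chondrocyte-like cells, *Wnt16* in mpMSC-like cells, and *Wnt2* is seen almost only in the fibroblast-like cells of Pdgfra-GFP 1.

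*Wnt4* (ENSMUSG00000036856, GRCm38 chromosome 4, 137277489 to 137299726, plus strand, up to 5 exons) encodes a ligand that can signal with or without β-catenin and is known from kidney and gonad development and from bone. Its level in SC-like cells was 221 CPM in metaphyseal 1 (95% Poisson interval 168 to 287, 57 UMIs), 345 CPM in metaphyseal 2 (269 to 435, 70 UMIs) and 185 CPM in Pdgfra-GFP 1 (169 to 203, 449 UMIs). In mpMSC-like cells it was 114, 186 and 43.1 CPM in the same order. In every library SC-like cells were above mpMSC-like cells, by 1.94 times (95% interval 1.33 to 2.82), 1.85 times (1.34 to 2.54) and 4.30 times (3.71 to 4.98). The mean log2 ratio was 1.32 ± 0.68 (SD, n = 3 libraries), without Pdgfra-GFP 1 it was 0.92, and without metaphyseal 1, whose SC-like cells were low in *Fabp5* and *Otos*, it was 1.49. Because the gene was chosen for its level in SCs, these values are a description and carry no test. Intervals on UMIs here and throughout cover counting error only.

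SC-like cells were not the highest *Wnt4* population in every library. The dpMSC-like cells stood at 299, 323 and 126 CPM, and the ratio of SC-like to dpMSC-like cells was 0.739 (0.556 to 0.964), 1.07 (0.827 to 1.36) and 1.48 (1.33 to 1.64). It lay below 1 in metaphyseal 1, had an interval covering 1 in metaphyseal 2, and lay above 1 in Pdgfra-GFP 1. Averaged over libraries, the levels of SC-like (250 ± 83.5 CPM, SD, n = 3) and dpMSC-like cells (249 ± 108) differed by far less than the spread between libraries. Below them came, in order of the mean over the 6 populations compared, mpMSC-like (115 ± 71.6), OB-like (79.3 ± 29.98), chondrocyte-like (41.6 ± 8.06) and EC-like cells (6.10 ± 1.96). Neighbours in this order from SC-like down to chondrocyte-like cells overlapped in their ranges over libraries, and EC-like cells did not overlap with chondrocyte-like cells. Within each library, however, dpMSC-like cells were above mpMSC-like cells and OB-like cells above chondrocyte-like cells. The order of mpMSC-like and OB-like cells was reversed in Pdgfra-GFP 1. Mural-like cells (12, 13 and 67 cells) had 24.6, 0 and 26.0 CPM on 2, 0 and 11 UMIs.

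**Figure D2:**
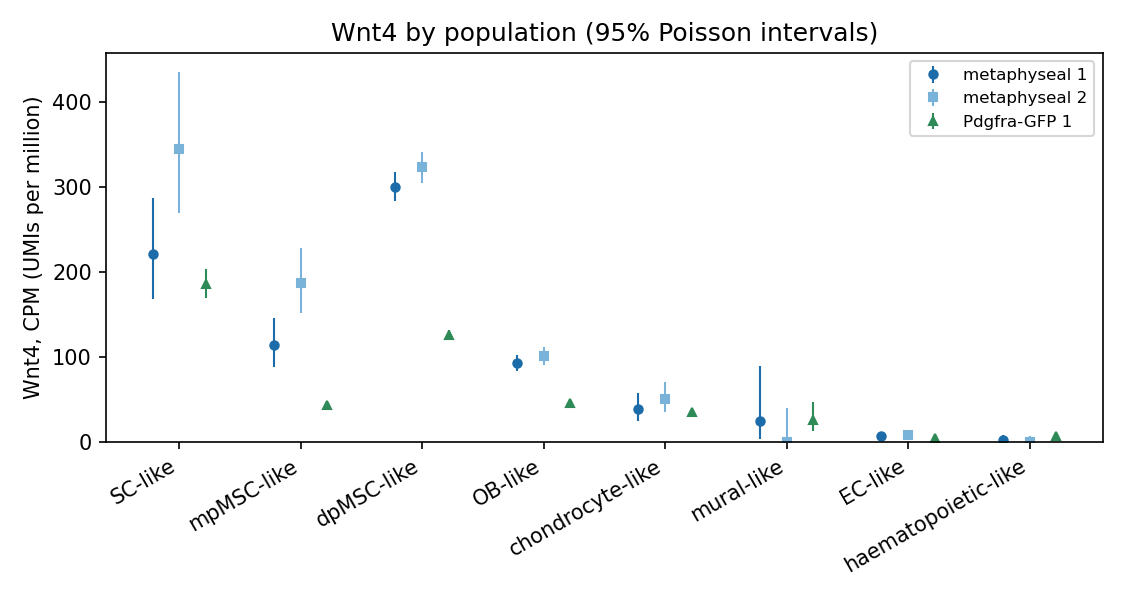
*Wnt4* level (CPM, linear axis) in 8 marker-gated populations, 1 point per library with its 95% Poisson interval. SC-like and dpMSC-like points overlap across libraries, but SC-like is lower in metaphyseal 1 and higher in Pdgfra-GFP 1. Each library's mpMSC-like point lies below both, and EC-like and haematopoietic-like points lie under 10 CPM.

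The share of cells with at least 1 *Wnt4* UMI ranked SC-like cells above mpMSC-like cells in each library. It was 66.7%, 66.7% and 52.7% of SC-like cells and 42.4%, 52.8% and 20.1% of mpMSC-like cells. Thinned to 2000 UMIs per cell, these shares were 33.3%, 38.1% and 26.5% in SC-like cells, 15.3%, 22.6% and 8.47% in mpMSC-like cells and 41.1%, 41.1% and 21.9% in dpMSC-like cells. EC-like cells, with median depths of 5853, 6082 and 4626.5 UMIs against 9247, 9283 and 8266 in SC-like cells, held *Wnt4* UMIs in 3.73%, 4.73% and 2.04% of cells before thinning. Whether these UMIs were background was not tested. Free RNA was present: barcodes with 1 to 100 UMIs, taken as droplets without a cell, had *Wnt4* at 68.4, 76.3 and 31.0 CPM.

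Although SC-like cells had a high level per cell, they held a small share of all *Wnt4* UMIs. They made up 1.13%, 1.05% and 2.52% of cells and held 2.89%, 3.58% and 9.68% of the *Wnt4* UMIs. The dpMSC-like cells held 60.7%, 63.0% and 42.4%, and OB-like cells 19.7%, 17.5% and 17.5%.

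Within the SC-like cells of Pdgfra-GFP 1, *Wnt4* was higher in cells with more SC markers. It was 103, 132, 190 and 500 CPM in cells with 3, 4, 5 and 6 of the 6 markers (123, 76, 47 and 37 cells, with median depths of 7544, 8644.5, 9463 and 9488 UMIs). In the metaphyseal libraries the groups held 1 to 16 cells and had no such order, with 234, 173, 248 and 281 CPM in metaphyseal 1 and 233, 652, 437 and 0 CPM in metaphyseal 2. Depth rose along with the number of markers in Pdgfra-GFP 1, and its part in this pattern was not tested. Since *Wnt4* was chosen for its level in SCs, the order is a description of Pdgfra-GFP 1 alone and no support.

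*Wnt4* also differed between libraries within a population. Its level in Pdgfra-GFP 1 was below both metaphyseal libraries in SC-like, mpMSC-like, dpMSC-like, OB-like, chondrocyte-like and EC-like cells. For OB-like cells the values were 92.5, 100 and 44.9 CPM. *Wnt5b* did not follow, being 25.3, 19.2 and 34.0 CPM in mpMSC-like and 18.7, 16.2 and 28.2 CPM in dpMSC-like cells, so that Pdgfra-GFP 1 was the highest of the libraries. Genotype, sorting, dissected region and library cannot be told apart for this difference, and the free RNA of Pdgfra-GFP 1 was also lower in *Wnt4* and higher in *Wnt5b* (23.02 CPM against 12.6 and 14.2).

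The ligands were next compared between populations with edgeR's quasi-likelihood test on UMIs summed per library and population, with the library as a block and Benjamini-Hochberg adjustment over the 14268 genes that passed the filter on low counts. All members but *Wnt2b* passed it, so 9 were tested. A high level in any single sum was enough to pass. *Wnt2*, *Wnt9a* and *Wnt10b* passed only through fibroblast-like cells, which are in none of these comparisons. *Wnt2* had almost no UMIs in the cells compared. *Wnt16* passed only through the mpMSC-like cells of Pdgfra-GFP 1. Since mpMSC-like cells are the reference, its lower calls were built in, and the counts of calls below include them. mpMSC-like cells were the reference of every comparison, so the 4 comparisons share these cells and are not independent. All populations, SC-like cells included, entered the same fit and share its estimate of the spread. The ligands were not tested in SC-like cells because the genes were chosen on them.

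**Figure D3:**
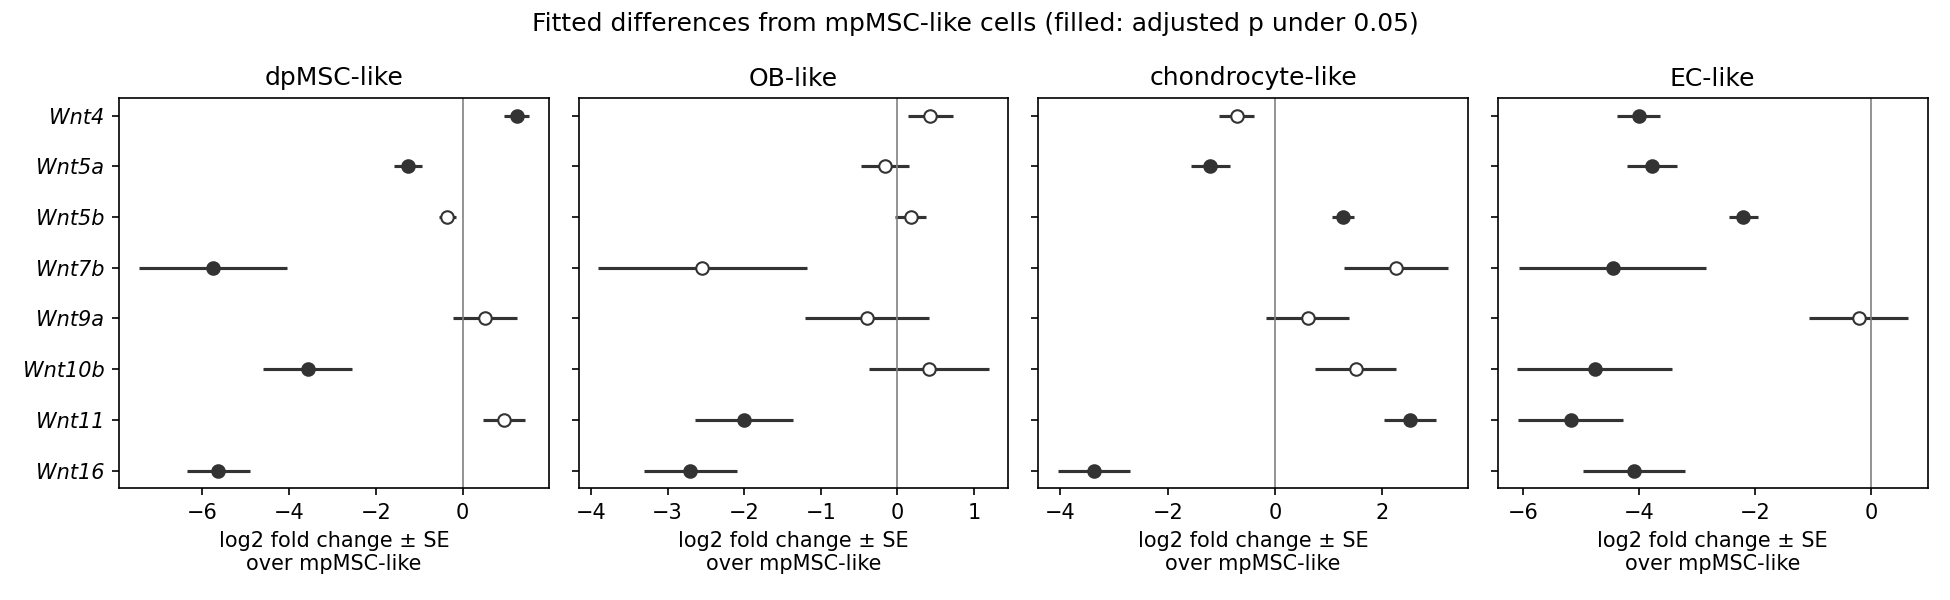
Fitted log2 fold change ± SE of 8 Wnt ligands in dpMSC-like, OB-like, chondrocyte-like and EC-like cells over mpMSC-like cells (own axis in each panel, filled circles for an adjusted p under 0.05). *Wnt4* is above 0 in dpMSC-like cells, *Wnt5b* and *Wnt11* in chondrocyte-like cells, and all 8 ligands drawn lie below 0 in EC-like cells, 7 of them with filled circles. The SE is derived from the test's F statistic. Fitted values of genes with 0 UMIs in a whole population, and so their SEs, depend on the prior count. *Wnt2*, with almost no UMIs in these cells, is not drawn. The direction of *Wnt16* was built in, since it passed the filter through mpMSC-like cells alone.

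Against mpMSC-like cells, dpMSC-like cells were higher in 1 ligand and lower in 4 (5 of 9 tested, where 21.1% of all genes were called, 11% higher and 10.1% lower). *Wnt4* was 2.63, 1.73 and 2.91 times higher in metaphyseal 1, metaphyseal 2 and Pdgfra-GFP 1 (fitted log2 fold change 1.24 ± 0.29 SE, adjusted p = 0.0026, edgeR). *Wnt5a*, the classical β-catenin-independent ligand, fell by 1.26 ± 0.32 (SE) on the log2 scale (adjusted p = 0.00524, edgeR), from 30.8, 19.2 and 26.6 CPM in mpMSC-like cells to 12.2, 12.8 and 10.3 CPM. Every mpMSC-like value lay above every dpMSC-like value. *Wnt16*, *Wnt10b* and *Wnt7b* were lower on few UMIs, as described below. *Wnt5b* (log2 fold change -0.35, adjusted p = 0.249) and *Wnt11* (0.95, adjusted p = 0.183) did not pass edgeR's test. Without metaphyseal 1 the calls dropped to 1, *Wnt16*, and *Wnt4* was at 1.13 with no call. Without Pdgfra-GFP 1 there were 2 calls and *Wnt5a* was not among them. Without the library block there were 2 calls, and DESeq2 gave 0, with 3 at an unadjusted p under 0.05.

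OB-like cells had 2 ligands lower than mpMSC-like cells and 0 higher by edgeR (of 9 tested, where 34.9% of all genes were called, 16.7% higher and 18.1% lower), with 0 more higher at an unadjusted p under 0.05. *Wnt11*, known from cell movement and from the growth plate, was at 16.3, 5.76 and 2.10 CPM in mpMSC-like and at 1.19, 1.17 and 0.332 CPM in OB-like cells. OB-like cells were thus lower in each library (log2 fold change -1.999 ± 0.642 SE, adjusted p = 0.0183, edgeR), a call lost without either metaphyseal 1 or metaphyseal 2 (1 call each). *Wnt4* did not pass the test (0.43 ± 0.29 SE, adjusted p = 0.282, edgeR). The scaling matters for these cells. With sums scaled by total UMIs in place of TMM, the median of all genes moved from -0.07 to -0.88, *Wnt4* and *Wnt5b* turned from 0.43 and 0.18 to -0.38 and -0.68, and 5 ligands were lower.

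Chondrocyte-like cells had 2 ligands higher and 2 lower than mpMSC-like cells (4 of 9 tested, where 33.2% of all genes were called, 16.5% higher and 16.8% lower). *Wnt5b* (ENSMUSG00000030170, chromosome 6, 119432531 to 119544347, minus strand), a ligand known to act on chondrocyte maturation, was at 43.5, 53.6 and 53.3 CPM in chondrocyte-like cells (50.1 ± 5.72, SD, n = 3) and at 9.85 to 34.0 CPM in SC-like, mpMSC-like, dpMSC-like and OB-like cells. The chondrocyte-like values did not overlap with any of these, and the fitted log2 fold change over mpMSC-like cells was 1.26 ± 0.21 (SE, adjusted p = 3.85e-05, edgeR). The *Wnt5b* call was lost in cells thinned to 2000 UMIs (adjusted p = 0.0861, edgeR) and kept in 14 other alternatives. *Wnt11* (ENSMUSG00000015957, chromosome 7, 98835112 to 98855195, plus strand) was at 14.5, 42.0 and 14.6 CPM on 9, 29 and 187 UMIs. Before scaling it was below mpMSC-like cells in metaphyseal 1 (16.3 CPM, 9 UMIs) and above them in the other two libraries (log2 fold change 2.51 ± 0.48 SE after TMM scaling, adjusted p = 0.000247, edgeR). *Wnt5a* was at 1.61, 21.7 and 6.97 CPM and called lower (-1.21 ± 0.37 SE, adjusted p = 0.0146, edgeR), although in metaphyseal 2 it was above its mpMSC-like cells (19.2 CPM). That call was lost without metaphyseal 1 and without Pdgfra-GFP 1. *Wnt4* was at 38.7, 50.7 and 35.4 CPM and did not pass (-0.72, adjusted p = 0.093, edgeR), but did pass with sums scaled by total UMIs (-1.14, adjusted p = 0.00913), where the median of all genes was -0.43.

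Hypertrophic chondrocytes are the mature cells next to the septoclast front, and their gate needed at least 3 of *Col10a1*, *Ihh*, *Panx3* and *Mef2c*. There were 5, 9 and 113 such cells. *Wnt5b* was at 133, 79.4 and 170 CPM in them against 28.3, 42.0 and 37.0 CPM in the other chondrocyte-like cells. The ratio was 4.72 (95% interval 2.02 to 10.8), 1.89 (0.930 to 3.797) and 4.58 (3.91 to 5.35), above 1 in all libraries with an interval covering 1 in metaphyseal 2. The other chondrocyte-like cells were above mpMSC-like cells in *Wnt5b* within each library. Their values nevertheless overlapped with the mpMSC-like range over libraries (19.2 to 34.0 CPM). *Wnt4* and *Wnt11* did not have one direction in hypertrophic over other chondrocyte-like cells. For *Wnt4* the ratio was 0.536 (0.0611 to 2.18), 0.287 (0.0736 to 0.811) and 2.65 (2.14 to 3.27), and for *Wnt11* 0.737 (0.0166 to 5.50), 0.847 (0.324 to 1.99) and 2.76 (1.97 to 3.83), with values above 1 in Pdgfra-GFP 1 and below it in the metaphyseal libraries. Superficial chondrocyte-like cells of Pdgfra-GFP 1, from the joint surface by their markers, had *Wnt11* at 28.0 CPM (31 UMIs) but *Wnt5b* at 1.81 CPM (2 UMIs) and *Wnt4* at 0.905 CPM (1 UMI).

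**Figure D4:**
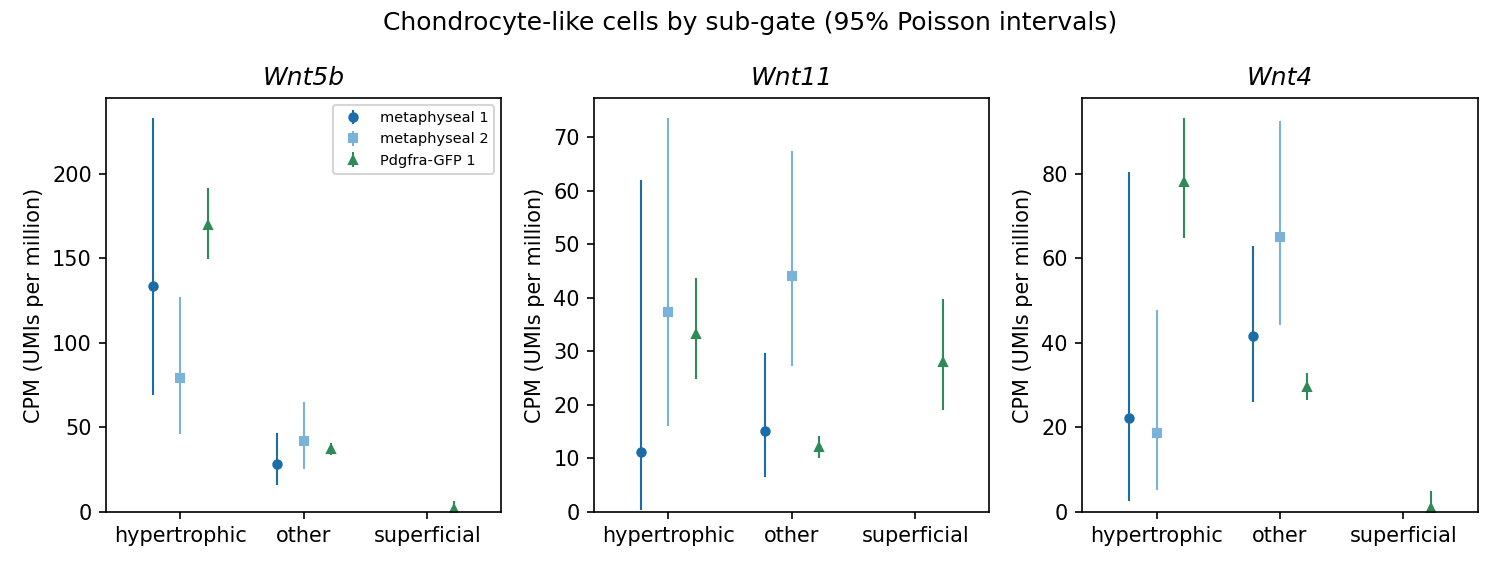
Levels of *Wnt5b*, *Wnt11* and *Wnt4* (CPM, linear axes) in hypertrophic, other and superficial chondrocyte-like cells, 1 point per library with its 95% Poisson interval (superficial cells in Pdgfra-GFP 1). *Wnt5b* is higher in hypertrophic cells of each library, while *Wnt4* is higher there in Pdgfra-GFP 1 and lower in the metaphyseal libraries.

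EC-like cells had 7 ligands lower than mpMSC-like cells and 0 higher by edgeR (of 9 tested, where 39.4% of all genes were called, 20% higher and 19.4% lower), with 0 higher at an unadjusted p under 0.05. *Wnt4* was at 6.58, 7.78 and 3.94 CPM (log2 fold change -4.01 ± 0.37 SE, adjusted p = 2.74e-09, edgeR), *Wnt5b* at 4.83, 5.43 and 5.91 CPM (-2.20 ± 0.24, adjusted p = 4.8e-08) and *Wnt5a* at 2.63, 1.27 and 2.63 CPM (-3.77 ± 0.43, adjusted p = 1.45e-07). No EC-like value reached any mpMSC-like value for these ligands. *Wnt11* had 2, 0 and 0 UMIs in EC-like cells. Of the few *Wnt5a* UMIs, 12, 3 and 3 came from arterial EC-like cells (22.0, 7.71 and 7.93 CPM) and 0, 1 and 0 from sinusoidal ones, which were 403, 321 and 74 cells against 74, 56 and 71 arterial cells. The arterial values rest on so few UMIs that they are given without a test.

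*Wnt5a* (ENSMUSG00000021994, chromosome 14, 28504750 to 28527448, plus strand) had a mean level of 25.5 ± 5.85 CPM (SD, n = 3) in mpMSC-like cells, 15.1 ± 5.33 in OB-like, 12.5 ± 3.22 in SC-like and 11.8 ± 1.32 in dpMSC-like cells. Mural-like cells had a mean close to the mpMSC-like one (25.2 ± 22.5 CPM), but on 4, 2 and 2 UMIs and with 49.3, 21.6 and 4.72 CPM in the libraries. In SC-like cells it was 11.6, 9.85 and 16.1 CPM, below mpMSC-like cells of the same library each time, with a ratio of 0.378 (0.0710 to 1.31), 0.512 (0.0546 to 2.40) and 0.605 (0.417 to 0.858). The first 2 intervals cover 1, since the SC-like cells held 3 and 2 *Wnt5a* UMIs there. *Wnt5a* was not seen in any haematopoietic-like cell. *Wnt5b* in SC-like cells (23.3, 9.85 and 26.0 CPM) was also below the mpMSC-like value of each library, but all 3 ratio intervals covered 1. *Wnt11* had 0, 2 and 12 UMIs in SC-like cells.

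For the sparse ligands the depth of the SC-like cells set the limit. An expected count of 3 UMIs corresponded to 11.6, 14.8 and 1.24 CPM in them, so a level of a few CPM was detectable in Pdgfra-GFP 1 but not in the metaphyseal libraries.

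*Wnt16* (ENSMUSG00000029671, chromosome 6, 22288227 to 22298522, plus strand), known as a ligand that preserves cortical bone, had 0, 2 and 84 UMIs in mpMSC-like cells, the last in 48 of 1112 cells at 11.8 CPM. It had 0 UMIs in the SC-like cells of every library, which in Pdgfra-GFP 1 allows a ratio to mpMSC-like cells of at most 0.132 by its 95% interval. It held 0, 0 and 3 UMIs in dpMSC-like cells and 0, 1 and 16 UMIs in OB-like cells. Chondrocyte-like cells held 0, 0 and 10 UMIs and EC-like cells 0, 2 and 0 UMIs. Each of these populations was called lower than mpMSC-like cells by edgeR. However, *Wnt16* passed the filter on low counts only through the mpMSC-like cells of Pdgfra-GFP 1. The direction of these calls was thus built in, and they are no support for a difference. In Pdgfra-GFP 1 the ratio of dpMSC-like to mpMSC-like cells was 0.0163 (0.00330 to 0.0493) and that of OB-like cells 0.0751 (0.0411 to 0.129). These comparisons rest on Pdgfra-GFP 1, since the metaphyseal libraries had 0 and 2 UMIs in the reference cells.

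*Wnt7b* (ENSMUSG00000022382, chromosome 15, 85535437 to 85582473, minus strand), known as a ligand that promotes bone formation, was carried by few cells. Chondrocyte-like cells held 20, 10 and 30 UMIs in 5, 2 and 13 cells, and SC-like cells held 0, 0 and 19 UMIs, the 19 in 7 of 283 cells (7.85 CPM). The mpMSC-like cells held 10, 0 and 2 UMIs, and the 10 were all in 1 cell of metaphyseal 1. *Wnt7b* was called lower in dpMSC-like cells, with 0 UMIs in each library (adjusted p = 0.0205, edgeR), and in EC-like cells, with 1, 1 and 0 UMIs (adjusted p = 0.0345, edgeR). Both calls were lost without metaphyseal 1, which holds that cell, and without metaphyseal 2.

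*Wnt10b* (ENSMUSG00000022996, chromosome 15, 98770712 to 98778150, minus strand), a ligand known to favour osteoblasts over adipocytes, had 0, 0 and 8 UMIs in mpMSC-like, 3, 5 and 10 in OB-like, 2, 3 and 20 in chondrocyte-like and 0, 0 and 5 in SC-like cells. It was called lower in dpMSC-like cells (0, 1 and 0 UMIs, adjusted p = 0.016, edgeR) and in EC-like cells (0 UMIs in each library, adjusted p = 0.00685, edgeR). The reference for these calls was 8 UMIs, all in Pdgfra-GFP 1. In the metaphyseal mpMSC-like cells 3 UMIs corresponded to 5.43 and 5.76 CPM. The dpMSC-like call was lost with DESeq2, without the library block, with gates 1 marker stricter and without metaphyseal 1. The EC-like call was lost with gates 1 marker stricter (adjusted p = 0.481, edgeR). *Wnt9a* (ENSMUSG00000000126, chromosome 11, 59306928 to 59333552, plus strand), a ligand known from joint formation, passed no test in these comparisons. In any library it had at most 16 UMIs in each of the populations tested.

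Fibroblast-like cells, found in Pdgfra-GFP 1 alone, held UMIs of 4 of the sparse ligands, *Wnt2*, *Wnt9a*, *Wnt10b* and, with 1 UMI, *Wnt2b*. Their values are given without a test because there is 1 library. *Wnt2* (ENSMUSG00000010797, chromosome 6, 17988940 to 18030585, minus strand), a ligand known from lung mesenchyme, had 55 of the library's 64 UMIs in 27 of 149 fibroblast-like cells (62.4 CPM, 47.0 to 81.2). That was 18.1% of these cells, or 6.16% after thinning. It had 0 UMIs in mpMSC-like cells of any library, and the 3 UMIs that a count of 0 allows correspond to 0.42 CPM in Pdgfra-GFP 1. *Wnt9a* was at 17.0 CPM (15 UMIs) and 15.2 times the mpMSC-like level (6.04 to 41.3), and *Wnt10b* at 13.6 CPM (12 UMIs) and 12.1 times that level (4.56 to 34.2). *Wnt2b* (ENSMUSG00000027840, chromosome 3, 104945272 to 104961921, minus strand) had no more than 4 UMIs in any gated population of any library and gave no comparison.

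By annotation all 10 are protein-coding genes. *Wnt5a*, *Wnt5b*, *Wnt7b* and *Wnt11* overlap a gene on the other strand (*Gm2670*, *Fbxl14*, *AU022754* and *Gm8398*), and *Wnt2b* overlaps *Gm43846* on its own strand. The strand setting of the counting is not given in the sources used here, and without strand, reads of such overlaps cannot be told apart.

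The rest of the pathway was followed in SC-like against mpMSC-like cells over a list of 61 other genes, of which 47 passed the filter. 1 was higher and 3 were lower (2.71% of all genes were called in this comparison, 1.46% higher and 1.24% lower). *Lgr4*, a receptor for R-spondins, had values of 38.8, 44.3 and 26.0 CPM in SC-like cells, where mpMSC-like cells had 18.1, 15.4 and 12.2 CPM (log2 fold change 1.16 ± 0.31 SE, adjusted p = 0.0415, edgeR), with every SC-like value above every mpMSC-like one. *Ror2*, a tyrosine kinase receptor of WNT5A, was at 3.88, 4.92 and 2.89 CPM against 10.9, 13.5 and 16.8 CPM (-2.24 ± 0.48 SE, adjusted p = 0.00959, edgeR), and the groups did not overlap. *Sfrp1*, a secreted Wnt antagonist, was at 19.4, 9.85 and 7.43 CPM against 23.5, 38.4 and 23.3 CPM (-1.48 ± 0.39 SE, adjusted p = 0.0384, edgeR). *Rspo2*, a secreted R-spondin that amplifies Wnt signals, had 1, 2 and 1 UMIs in SC-like and 5, 10 and 108 UMIs in mpMSC-like cells (adjusted p = 0.025, edgeR). In dpMSC-like cells *Sfrp1* was at 139.5, 137 and 120.4 CPM and *Rspo2* at 82.6, 89.5 and 41.8 CPM. Both were thus far below the dpMSC-like level in SC-like cells.

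By role, 1 of 19 tested receptors was higher and 1 lower, 1 of 9 antagonists and 1 of 3 R-spondins were lower, and neither *Wls* nor *Porcn*, which load and release Wnt proteins, was called. Of 7 transducers and 7 target genes 0 were called by edgeR. The median log2 fold change of the 47 genes was -0.08, against -0.05 over all 14268. These 4 calls did not hold when libraries were left out. Without metaphyseal 1, metaphyseal 2 or Pdgfra-GFP 1 they were 1, 0 and 1 (12, 10 and 3 at an unadjusted p under 0.05), and without the library block 0 (7 at an unadjusted p under 0.05, with 1 call by DESeq2).

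The genes whose pattern was most like *Wnt4* were named by Pearson's r of log2(CPM + 10) over 27 sums of a library and a population, among 6141 genes. They were *Mme* (a membrane peptidase, r = 0.901), *Pdk4* (a mitochondrial kinase, 0.899), *Runx2* (the osteoblast transcription factor, 0.891), *Irs1* (an insulin receptor substrate, 0.888) and *Fzd5* (a Frizzled receptor, 0.878). The sums share libraries, depth and cell lineages, so these coefficients are a description. *Mme* had dpMSC-like (388 CPM) above SC-like (217 CPM) and mpMSC-like cells (139 CPM) by its mean over libraries. The *Wnt4* means of SC-like (250 CPM) and dpMSC-like cells (249 CPM) were about equal. *Pdk4* had mpMSC-like above SC-like and dpMSC-like cells.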

How the data were processed

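Raw UMI counts of 3 Chromium 3′ libraries were used, deposited by the authors as unfiltered matrices and made, per the labels and the study's methods, with bcl2fastq, fastp 0.20 and STAR 2.7.3a (STARsolo) on mm10 with Gencode M23 and H2B-GFP. Total counts were 25243314, 22082735 and 91747759 UMIs. The cell filter asked for a minimum of 1500 (metaphyseal) or 1000 (Pdgfra-GFP) genes and at most 15% mitochondrial and 30% ribosomal UMIs. EmptyDrops and a doublet caller were not run, and cells passing gates of more than 1 lineage were left out.

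A marker was on when its UMIs exceeded e + 2√e, with e the UMIs given by a free-RNA share of 0.2 with the profile of barcodes of 1 to 100 UMIs. A gate needed at least 3 markers, and SC-like cells also *Mmp9*. The members, lists and gates were chosen with earlier results of these data known.

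UMIs were summed per library and population (at least 10 cells, 27 sums) and tested with edgeR 4.0.16 (R 4.3.3; TMM, filterByExpr, library as block, threshold 0.05). The SE of a fitted log2 fold change was derived from the test, as its absolute value divided by the square root of the F statistic. DESeq2 1.42.0, other filters, gates and depths, and each library left out served as alternatives. Populations of a library come from 1 suspension, and deviations from the population means were correlated within each library (r across 6188 genes of 0.208 to 0.803). On simulated OB-like against mpMSC-like sums of 12568 genes, 64% of 2-fold and 100% of 4-fold changes were recovered. The changed genes were drawn from highly counted genes only, with a fixed spread and no library effect. These rates therefore do not apply to the sparse ligands. CPM intervals are exact Poisson and shares exact binomial (95%). Named genes were all members, pathway genes passing the SC-like test, and the 5 most like *Wnt4* with a mean of at least 20 CPM. Loci come from Gencode M21 on GRCm38.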

Additional observations from a re-analysis of the deposited data

Results flagged for a closer look

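In Pdgfra-GFP 1, 1371 cells (12.2% of the library) met no marker gate and entered no comparison, yet they held 31.7% of the *Wnt16* UMIs (59 of 186), 28.2% of the *Wnt7b* UMIs (22 of 78) and 43.1% of the *Wnt9a* UMIs (59 of 137). The signal in cells outside the comparisons is what singles out these 3 ligands. *Wnt16* was at 6.87 CPM in them against 11.8 CPM in mpMSC-like cells, and *Wnt9a* also at 6.87 CPM, in 41 cells. Genes far above the gated cells were *Thbs4* (920 against 57.2 CPM), *Tnmd* (654 against 35.6 CPM), *Angptl7* (166 against 2.80 CPM) and *Prg4* (2242 against 356 CPM). These genes were picked after their values were seen, and the cells are left unnamed.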

How the results depend on the processing

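The *Wnt4* ratio of SC-like to mpMSC-like cells stayed above 1 under every alternative run, with mean log2 values of 1.29 to 1.40, and of 0.92 to 1.53 when each library was left out. Because the gene was chosen for its level in SCs of these same libraries, this is a description and no support for the difference. Counts of calls moved more. In OB-like cells (2 calls) there was 1 with DESeq2, no replicate block, the deepest cells left out or a larger free-RNA allowance, 0 in cells thinned to 2000 UMIs (1 at an unadjusted p under 0.05, edgeR), 5 with scaling by total UMIs, and 1 to 2 without each library. *Wnt11* lost its call there with no block, with the deepest cells left out, and without either metaphyseal library. *Wnt16*, whose direction was built in, kept its call in all 11 alternatives that gave it a test, which is no support for it. Counts for the other populations include *Wnt16* too where it was called. In dpMSC-like cells (5 calls) there were 0 with DESeq2 (3 at an unadjusted p under 0.05), 2 without the block, 3 with gates 1 marker stricter, 2 after thinning and 1 to 4 without each library. In chondrocyte-like cells (4) there were 2 with DESeq2, 2 without the block, 1 after thinning and 3 to 4 without each library. In EC-like cells (7) there were 3 after thinning and 5 to 6 without each library. *Wnt7b* in EC-like cells turned to 0.60 with gates 1 marker stricter, and the cause was not tested. The 4 pathway calls of SC-like cells became 1 with DESeq2, 9 with no filter, 0 without the block (7 at an unadjusted p under 0.05), 2 after thinning, 2 with scaling by total UMIs and 0 to 1 without each library. Pairing by library is the design's, and the block changed the calls given above. The free-RNA allowance, the SC gate without *Mmp9* and the scaling by total UMIs were added after seeing the data. The fibroblast-like comparison was not run, because these cells were in 1 library.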

Other observations

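The 9 remaining Wnt genes of the files had few UMIs, at most 68 in a library. *Wnt3a*, *Wnt7a* and *Wnt8a* had 0 UMIs in the cells of each library, and the metaphyseal libraries had at most 3 UMIs of any of the 9. In Pdgfra-GFP 1, *Wnt10a* had 68 UMIs, 59 of them in cells that met no gate, and *Wnt6* had 63, of which 34 were in such cells. *Wnt1* had 11 UMIs and *Wnt8b* 7 in the same library.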
